A study of Mus musculus with 23 samples.

Results

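The immediate early genes Fos, Fosb, Jun, Junb, Atf3, Egr1, Egr2, Nr4a1, Ier2, and Dusp1 were examined in the bone of diabetic and nondiabetic mice. These 10 genes were chosen by name, with earlier results of these data known. They make up 10 of the 17644 genes in the deposited table of TPM, a transcript abundance scaled for gene length and library size. All 10 also passed the filter of at least 10 counts in at least 5 libraries, which left 14364 genes for testing. The data came from bulk RNA-Seq of marrow-depleted femur and tibia, with 1 library from each of 23 female mice at 11 weeks of age. Nondiabetic mice had received saline and were labelled WT (WT Control, n = 5) or Sarm1-KO (KO Control, n = 6). Diabetic mice had received streptozotocin (STZ), a toxin of insulin-producing β cells, at 100 mg/kg and had type 1 diabetes (T1D) for 3 weeks (WT T1D, n = 6, and KO T1D, n = 6). The Sarm1 deletion was global, so it was not limited to a bone cell type, and all groups shared a C57BL6/N background. WT mice of the study were littermates or purchased mice, and the labels do not say which mouse was which.

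Immediate early genes are transcribed within minutes of a stimulus, without new protein synthesis, because their regulators are already present in the resting cell. Growth factors, mechanical load, parathyroid hormone, and stress act through kinase cascades on factors bound at these genes, and the messages decay quickly. In bone, AP-1 proteins such as those of the Fos and Jun families are known for their roles in osteoblasts and osteoclasts, and the same genes also respond to tissue handling.

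Library size was similar throughout, at 16938101 to 20135592 counts per mouse. Sarm1, the targeted gene, was low in every group, with 15 to 32 counts per WT Control library and 5 to 29 per KO Control library, and with 6 to 21 and 15 to 28 counts in the T1D libraries labelled WT and KO. Sarm1 counts in these libraries therefore did not separate the genotypes. By quantitative PCR, a different measure, the paper reports low Sarm1 in bone, with significantly less in Sarm1-KO than in WT bone. KO and WT below mean what the library was labelled, also wherever a direction is given. Markers of osteoblasts and osteocytes were detected in every library, with summed CPM (counts scaled to library size) of 59087 to 115065 in WT Control and 51625 to 103910 in KO Control. Among T1D mice the sums were 5032 to 82739 for WT and 69092 to 103155 for KO. The low end in WT T1D came from mice A3905 and A3906. Their mean log2 levels of these markers were 7.21 and 7.05, compared with 8.52 to 9.17 in the other WT T1D mice. For B cell markers, A3905 and A3906 were at 2.88 and 3.16, and the other WT T1D mice at 5.39 to 6.04. For osteoclast markers they were at 6.51 and 6.63, and the others at 4.97 to 5.80. Mouse IDs began with A17 in 1 WT Control and 3 WT T1D mice, with A36 in 5 KO Control and all 6 KO T1D mice, with A37 in 1 WT Control and 1 KO Control mouse, and with A39 in 3 WT Control and 3 WT T1D mice. Genotype and the series of mouse IDs cannot be told apart for most of these mice.

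The members differed widely in abundance. On the TPM scale, which is per length, Junb averaged 54.9 ± 7.42 (SD, n = 23), Ier2 averaged 45.6 ± 4.88, and Dusp1 averaged 43.2 ± 9.56. Junb exceeded Ier2 in 22 of 23 libraries, but Ier2 exceeded Dusp1 in only 14 of 23, so this pair was not ordered beyond its spread. Nr4a1 followed at 18.0 ± 4.05 TPM and exceeded Jun in 23 of 23 libraries. Jun at 11.3 ± 2.30 TPM and Egr1 at 10.8 ± 2.54 TPM overlapped, with Jun higher in 13 of 23 libraries. Fos was lower, at 6.21 ± 2.31 TPM, then Atf3 at 2.32 ± 0.955, Egr2 at 1.13 ± 0.40, and Fosb at 0.722 ± 0.983. Every member was detected in every library, and the lowest count of any was 4, for Fosb in a KO Control mouse.

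The DNA just upstream of 4 of these genes is shown because their values carry the results below. By Pearson r, Fos varied with Dusp1 and Junb with Ier2 between mice, and Fosb had the widest spread. Neither pair passed by Spearman rho over the 45 pairs of members. The relation of Fos and Dusp1 was also lost when certain single libraries were left out. Each sequence is the 250 bases before the annotated start in RefSeq on GRCm38.p6, written 5′ to 3′ on the strand of the gene. Capitals mark TGACG or its reverse complement CGTCA, the short form of the cAMP response element to which CREB and ATF proteins bind, and the full form TGACGTCA. The Fos window lies at chr12:85473640-85473889 on the plus strand, Dusp1 at chr17:26508473-26508722, Junb at chr8:84978749-84978998, and Fosb at chr7:19310046-19310295, the last 3 on the minus strand.
Fos: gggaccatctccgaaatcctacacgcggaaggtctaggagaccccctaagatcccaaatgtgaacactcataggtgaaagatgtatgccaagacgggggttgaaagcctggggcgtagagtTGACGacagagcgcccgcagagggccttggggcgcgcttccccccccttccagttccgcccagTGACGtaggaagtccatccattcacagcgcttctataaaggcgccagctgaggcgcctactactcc
Dusp1: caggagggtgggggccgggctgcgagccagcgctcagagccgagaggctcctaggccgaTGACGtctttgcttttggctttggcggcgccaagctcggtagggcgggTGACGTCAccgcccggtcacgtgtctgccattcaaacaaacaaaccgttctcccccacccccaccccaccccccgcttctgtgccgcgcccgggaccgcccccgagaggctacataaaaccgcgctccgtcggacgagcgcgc
Junb: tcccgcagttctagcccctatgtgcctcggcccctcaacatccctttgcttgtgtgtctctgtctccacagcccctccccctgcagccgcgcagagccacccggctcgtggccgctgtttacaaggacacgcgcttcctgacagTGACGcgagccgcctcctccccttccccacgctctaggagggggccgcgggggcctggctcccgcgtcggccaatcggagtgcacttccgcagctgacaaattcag
Fosb: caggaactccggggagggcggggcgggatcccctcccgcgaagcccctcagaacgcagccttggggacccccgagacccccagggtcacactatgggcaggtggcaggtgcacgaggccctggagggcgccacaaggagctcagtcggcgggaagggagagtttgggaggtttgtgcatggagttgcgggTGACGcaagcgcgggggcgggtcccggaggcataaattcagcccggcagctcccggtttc

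Fos held TGACG at bases 66 to 62 and 129 to 125 before its start, and a TATAAA at bases 33 to 28. Dusp1 held the full TGACGTCA at bases 143 to 136, which contains the short form on both strands, and a further TGACG at bases 191 to 187. The single TGACG lay at bases 106 to 102 in Junb and at bases 60 to 56 in Fosb. RefSeq windows were searched for 8 of the 10 members. No window was matched for Ier2. Windows on chromosome 18, where Egr1 lies, were left out for the members but not for all genes, so Egr1 was not searched. TGACG on either strand was found in 7 of these 8 (all but Jun), compared with 19.8% of 27025 genes with windows of this length. The full TGACGTCA was found in 1 member, Dusp1, and in 1.77% of all genes. The CArG box, the site of serum response factor, was found in 1 member, in 4 of the 5 windows of Egr2, and in 1.62% of all genes. The AP-1 site TGANTCA was found in 0 of the 8 members and in 7.82% of all genes, and TATAAA on the strand of the gene in 1 member and in 8.94%. Only the 250 bases before the start and exact motifs were searched. A gene without a match may hold a site farther away or with other letters. Such matches describe these letters only.

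The first comparison asked how the immediate early genes differed with T1D in WT mice. None of the 10 was called by the quasi-likelihood test of edgeR at an adjusted p under 0.05, where 2.33% of the 14364 tested genes were called. That share itself rested on single libraries. The 334 genes behind it became 0 without A3767 or A3907, between 3 and 29 without A3903, A3904, A3905, A3906, or A1787, between 538 and 1262 without A1757, A1758, A1764, or A3909, and between 51 and 535 when a KO library was left out. Without A3905 and A3906 together, edgeR called 0 of 14317 genes. In the edgeR fit of all libraries, 2 members had an unadjusted p under 0.05 (Fosb and Dusp1), compared with 22.2% of all genes. DESeq2 called 1 member (Fosb) and 6.98% of all genes, and limma on log2 (TPM + 1) called 3 (Fosb, Egr2, and Atf3) and 35.9% of all genes. The median log2 fold change of the members was 0.00, with 5 higher and 5 lower, and the median of all tested genes was -0.01. No member had values without overlap between WT Control and WT T1D, compared with 2.19% of all genes. In bulk bone, fewer cells of a type and less RNA per cell cannot be told apart.

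**Figure D1:**
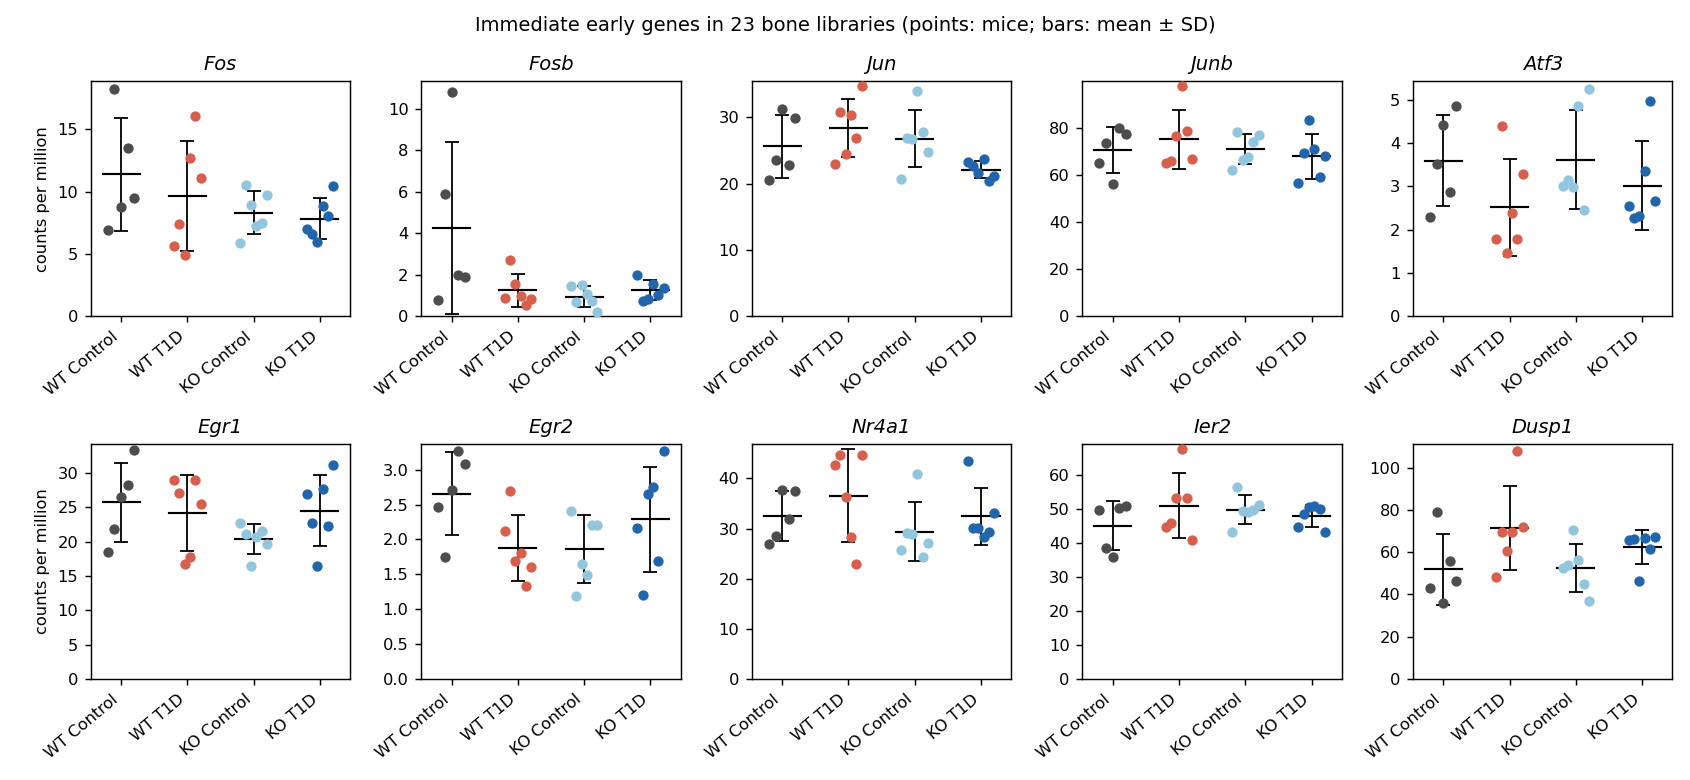
CPM (y axis) of the 10 members in the 4 groups (x axis). Each point is 1 mouse, and the bars give the mean ± SD. The 2 highest Fosb values, 5.87 and 10.8, are both WT Control mice, and the groups overlap for every member.

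Fos and Fosb encode AP-1 subunits that pair with Jun proteins and bind DNA as heterodimers. Fosb was at 0.767, 5.87, 10.8, 1.97, and 1.87 CPM in the WT Control mice A1757, A3767, A3903, A3904, and A3907. In WT T1D it ranged from 0.520 to 2.70 CPM with a median of 0.911. The mean of WT Control was thus set by A3767 and A3903, and the other WT Control mice lay within the range of WT T1D. The log2 fold change was -1.77 ± 0.53 (SE), with an adjusted p of 0.0643 in edgeR and 0.0214 in DESeq2. Without A3767 and A3903, a choice made after the values were seen, it was -0.30 ± 0.50, with an adjusted p of 0.786. Without A3903 alone it was -1.07 ± 0.50, with an adjusted p of 0.238 in edgeR. Leaving out A1757 or A1764 brought Fosb past the threshold in edgeR, with adjusted p values of 0.0295 and 0.0304, in fits that called 4.80% and 6.72% of all genes. Without the A17 mice the log2 fold change was -2.70 ± 0.63, with an adjusted p of 0.0146 in a fit that called 15.5% of all genes. The WT T1D mice of that fit were A3905 and A3906, whose marker levels stood apart, and A3909.

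Fos was at 6.96, 18.2, 8.76, 13.5, and 9.48 CPM in the same WT Control mice and ranged from 4.95 to 16.1 CPM with a median of 9.27 in WT T1D. The groups overlapped, and the log2 fold change was -0.24 ± 0.27, with an adjusted p of 0.641 in edgeR. Fos instead separated by mouse ID within WT. It was at 4.95 to 7.43 CPM in the 4 mice with A17 IDs, whether Control or T1D, and at 8.76 to 18.2 CPM in the 7 with A37 or A39 IDs. Fos was the only member for which these WT series did not overlap, compared with 2.26% of all tested genes, and this split was noticed after the values were seen. Without the A17 mice, the log2 fold change of Fos with T1D in WT was 0.10 ± 0.24, with an adjusted p of 0.804 in edgeR, and without A3905 and A3906 it was -0.65 ± 0.26, with an adjusted p of 0.366.

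Jun and Junb encode the partners of the Fos proteins. Jun ranged from 20.5 to 31.2 CPM in WT Control and from 23 to 34.7 in WT T1D, with a log2 fold change of 0.15 ± 0.12. Junb ranged from 56.1 to 80.1 CPM and from 65.1 to 97.9 CPM, with a log2 fold change of 0.09 ± 0.11. Its highest value was in WT T1D mouse A3905, and without A3905 and A3906 the log2 fold change was -0.04. Atf3, a stress-induced factor that pairs with Jun proteins, was at 2.30, 3.51, 4.41, 2.87, and 4.85 CPM in WT Control. In WT T1D, Atf3 ranged from 1.47 to 4.39 CPM with a median of 2.09, and 3 of 6 mice were below all WT Control mice. Its log2 fold change was -0.51 ± 0.29, with an adjusted p of 0.304 in edgeR and 0.0465 in limma on TPM.

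Egr1 and Egr2 encode zinc finger factors that bind GC-rich sites. Egr2 was at 2.46, 1.76, 2.71, 3.27, and 3.09 CPM in WT Control and ranged from 1.33 to 2.70 CPM with a median of 1.75 in WT T1D. As with Atf3, the lower 3 of the 6 diabetic mice fell outside the WT Control range. The log2 fold change of Egr2 was -0.50 ± 0.25, with an adjusted p of 0.246 in edgeR and 0.0400 in limma on TPM. Egr1 differed less, with a WT Control mean of 25.7 ± 5.76 CPM (SD, n = 5) against 24.1 ± 5.54 (n = 6) in the diabetic WT mice. Its log2 fold change was -0.09 ± 0.17.

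Dusp1, the phosphatase that inactivates p38, JNK, and ERK kinases and so limits the response that induced it, had the lowest p of the members with a higher mean in T1D. It was at 43.0, 79.0, 35.8, 55.9, and 46.2 CPM in WT Control and ranged from 48.2 to 108 CPM with a median of 69.6 in WT T1D. In T1D, 5 of 6 mice were above the WT Control mean, but only A3906 was above every WT Control mouse. The log2 fold change was 0.45 ± 0.19, with an unadjusted p of 0.0267 and an adjusted p of 0.165 in edgeR. It was 0.26 ± 0.19 without A3905 and A3906 (adjusted p = 0.646) and 0.078 ± 0.22 with the score of erythroid markers as a covariate. That score was 7.86 to 8.41 in WT Control and 8.38 to 9.12 in WT T1D. The covariate and T1D can therefore hardly be told apart in WT mice. Nr4a1, an orphan nuclear receptor, and Ier2, a small nuclear protein, had log2 fold changes of 0.17 ± 0.16 and 0.18 ± 0.11. Without A3905 and A3906 these were 0.37 ± 0.14 and 0.033 ± 0.11. Nr4a1 spanned 22.9 to 44.7 CPM in WT T1D, which included the whole WT Control range of 26.9 to 37.7.

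The same comparison in mice labelled KO asked whether the members differed with T1D there. None was called by edgeR, as for 0% of all tested genes, and DESeq2 and limma also called none. At an unadjusted p under 0.05, 1 member passed (Jun), compared with 3.15% of all genes. The median log2 fold change was 0.04, with 5 members higher and 5 lower. KO Control and KO T1D overlapped for every member, and 0.258% of all genes did not overlap. Jun ranged from 20.7 to 34.0 CPM with a median of 26.8 in KO Control and from 20.4 to 23.7 with a median of 22.1 in KO T1D. All 6 KO T1D mice lay below the KO Control mean, but only 1 was below every KO Control mouse. Its log2 fold change was -0.28 ± 0.12, with an unadjusted p of 0.0269 in edgeR and an adjusted p of 1.00. Egr1, Egr2, and Fosb were at log2 fold changes of 0.27 ± 0.16, 0.30 ± 0.24, and 0.41 ± 0.54. Fosb spanned 0.220 to 1.49 CPM in KO Control and 0.737 to 2.00 CPM in KO T1D, so no mouse labelled KO reached the levels of A3767 and A3903.

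**Figure D2:**
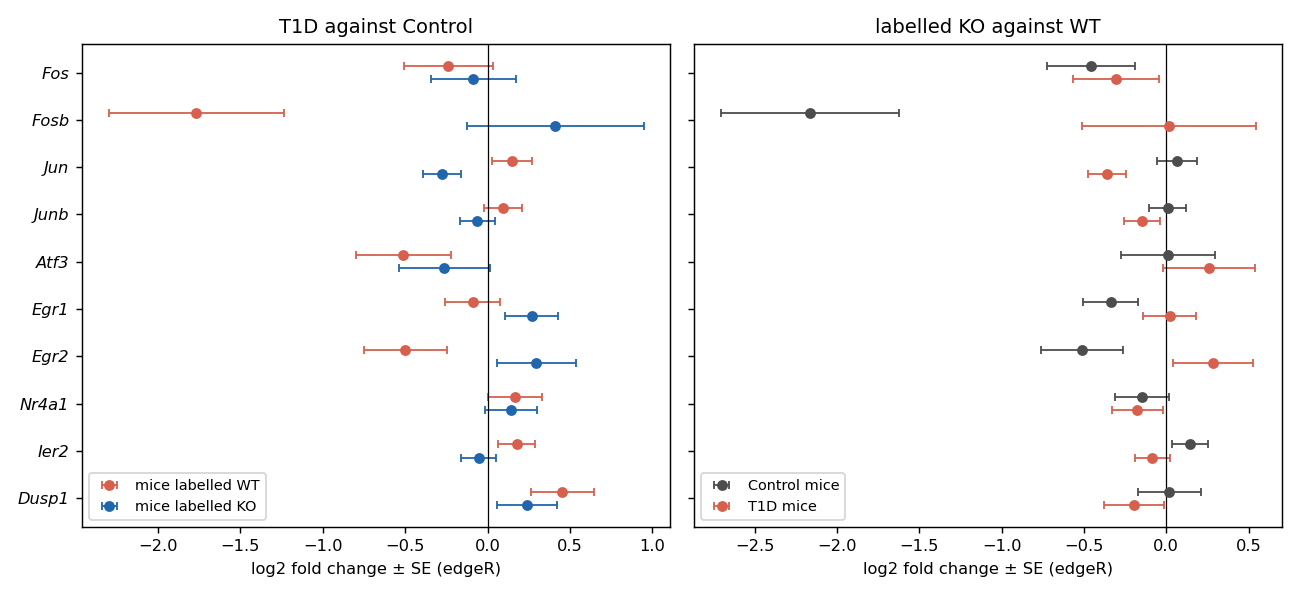
Log2 fold changes from edgeR (x axis) with SE for the 10 members (y axis). The left panel gives T1D against Control in mice labelled WT and KO, and the right panel gives KO against WT in Control and T1D mice. Fosb lies far from 0 only in the comparisons that include WT Control, at -1.77 and -2.16.

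Whether the T1D difference depended on genotype was tested with the interaction term. None of the members was called by edgeR, DESeq2, or limma, as for 0% of all tested genes in edgeR. At an unadjusted p under 0.05, 3 members passed, compared with 10.2% of all genes. The interaction was 2.18 ± 0.76 on the log2 scale for Fosb, 0.80 ± 0.35 for Egr2, and -0.42 ± 0.17 for Jun, each with an adjusted p of 0.479 in edgeR. For Fosb the term was 0.71 ± 0.66 without A3767 and A3903. A positive term means that the T1D difference was higher in KO than in WT, and none of these passed the threshold.

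The remaining comparisons asked how mice labelled KO differed from WT at the same disease state. They share their groups with the comparisons above and are not independent of them. In Control mice, 0 members were called by edgeR, DESeq2, or limma, compared with 0.0278% of all genes in edgeR, and 1 member (Fosb) had an unadjusted p under 0.05, compared with 4.80%. Groups did not overlap for 0 members and for 0.613% of genes. Fosb was lower in KO Control, with a log2 fold change of -2.16 ± 0.54, an unadjusted p of 0.000573 in edgeR, and the rank of 9 among all tested genes by p. Its adjusted p was 0.914, and without A3767 and A3903 the log2 fold change was -0.70 ± 0.50. Fos, Egr1, and Egr2 were at log2 fold changes of -0.46 ± 0.27, -0.34 ± 0.17, and -0.51 ± 0.25. For each of these 3 genes, all 6 KO Control mice were below the WT Control mean, a count not taken over all genes. Only 1 of the 6 was below every WT Control mouse for Fos, 1 for Egr1, and 3 for Egr2. The highest value among the members was that of Ier2, at 0.14 ± 0.11.

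In T1D mice, edgeR, DESeq2, and limma also called 0 members in KO against WT, compared with 0.0905% of all genes in edgeR, 1.66% in DESeq2, and 8.12% in limma. At an unadjusted p under 0.05, 1 member passed (Jun), compared with 17.1% of all genes, and groups did not overlap for 0 members and 0.863% of genes. Jun was lower in KO T1D, with a log2 fold change of -0.36 ± 0.12, an unadjusted p of 0.00543, and an adjusted p of 0.166 in edgeR. In KO T1D, 4 of 6 mice were below every WT T1D mouse. Egr2 was at 0.28 ± 0.24 and Fos at -0.30 ± 0.26. Leaving out the A17 mice leaves 3 WT T1D mice. These are A3905 and A3906, whose marker levels stood apart, and A3909. Jun was then at -0.48 and Fos at -0.78, with adjusted p values of 0.0251 and 0.0344 in edgeR, in a fit that called 10.8% of all genes. For Fos, the value without A3905 and A3906 was 0.10, with an adjusted p of 0.960. A3905 and A3906 pull Fos in the opposite direction to the A17 mice in WT T1D.

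The spread between mice of the same group was measured next as the pooled SD of log2 (CPM + 0.5) within groups. Fosb had the widest, at 0.74, which lies above 97.0% of the tested genes. Fos followed at 0.46 and Atf3 at 0.42, above 88.2% and 84.3% of genes. Dusp1 (0.34), Egr2 (0.33), Egr1 (0.30), and Nr4a1 (0.29) were also above the median of all tested genes, 0.21, whereas Jun (0.21), Junb (0.19), and Ier2 (0.19) were below it. Low genes vary more by counting alone, so each member was also set beside genes within 2-fold of its mean CPM. Against these, 9 of 10 members exceeded the median. Fosb was above 93.0% of its 1685 genes of like level, Dusp1 above 92.5% of 4402, and Fos above 90.8% of its own. Egr2 was the exception, above 28.3% of 1794. From the lowest to the highest library, CPM differed 49.0-fold for Fosb, 3.68-fold for Fos, 3.56-fold for Atf3, and 3.01-fold for Dusp1, but only 1.70-fold for Jun, 1.74-fold for Junb, and 1.88-fold for Ier2. The spread of Fosb was itself uneven, with SDs of 1.26 among WT Control and 0.58 among WT T1D mice, and 0.55 and 0.39 in Control and T1D mice labelled KO.

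A further question was whether the members rose and fell together between mice of a group. Values were log2 (CPM + 0.5) with group means subtracted, over 23 libraries, and p values came from permutation tests with 100000 resamples within groups. Of the 9 other members, 1 was correlated with Fos at an adjusted p under 0.05. This was Dusp1, with Pearson r = 0.67 (permutation p = 0.00230, adjusted p = 0.0207) and Spearman rho = 0.65 (permutation p = 0.00267, adjusted p = 0.0240). Without the 2 libraries farthest from the median of Fos, r was 0.48. The next closest was Junb, at r = 0.39 with an adjusted permutation p of 0.471 and rho = 0.48 with an adjusted permutation p of 0.168. Fos and Fosb, members of the same family, had r = -0.05, and Fos and Egr1 had r = 0.22. Dusp1 was highest in A3906 and A3767, at 108 and 79.0 CPM, which also had the 2 highest Fos values, 16.1 and 18.2 CPM. Leaving out A3767, A3906, A1758, or A3676 left 0 members correlated with Fos. With the A17 mice left out or with TPM values, 0 were correlated as well.

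**Figure D3:**
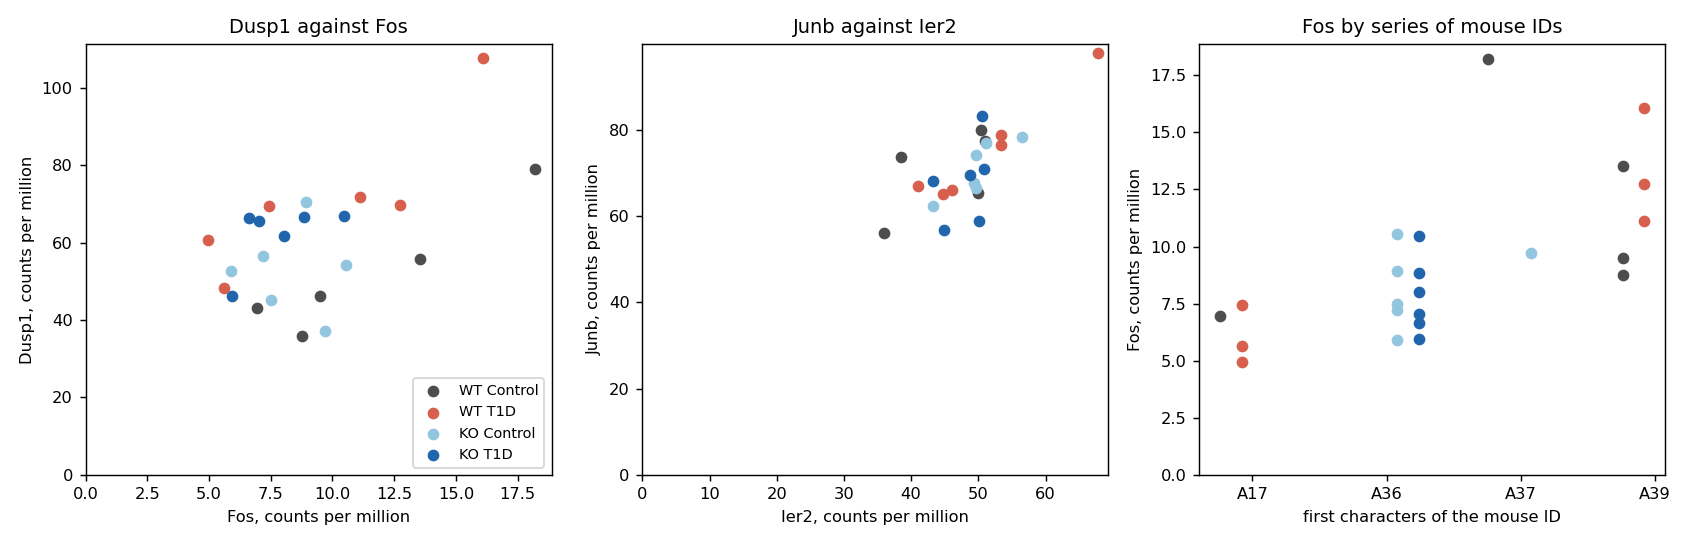
CPM of Dusp1 against Fos and of Junb against Ier2 (left and middle, 1 point per mouse), and CPM of Fos by the first characters of the mouse ID (right). Mouse A3906 holds the highest Dusp1 value (108 CPM), A3905 holds the highest Junb and Ier2 values (97.9 and 67.8 CPM), and the WT mice with A17 IDs lie below the other WT mice for Fos.

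All 45 pairs of members were then compared, a step added after the data were seen. Pearson r was positive in 26 pairs and negative in 19, with a median of 0.11, so the members did not vary as 1 block. An adjusted p under 0.05 was reached by 2 pairs for Pearson r and by 0 for Spearman rho. The closest pair was Junb and Ier2, with r = 0.74 (permutation p = 0.000630, adjusted p = 0.0283) and rho = 0.69 (permutation p = 0.00134, adjusted p = 0.0592). Without the 2 libraries farthest from the median of Junb, r was 0.58. These genes lie on the same chromosome, with Ier2 at chr8:84661331-84662852 and Junb at chr8:84976909-84978748 on GRCm38.p6, 314 kb apart. The other pair was Fos and Dusp1, with an adjusted permutation p of 0.0466 over the 45. Jun and Atf3 had r = 0.55, and Jun and Nr4a1 had r = 0.47, with adjusted permutation p values of 0.221 and 0.267. Opposite signs were seen for Fosb and Ier2 (r = -0.56) and for Junb and Nr4a1 (r = -0.49), each with an adjusted permutation p of 0.267. Fosb was highest in A3903, the library with the lowest Junb, Ier2, and Dusp1 (56.1, 35.99, and 35.8 CPM).

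**Figure D4:**
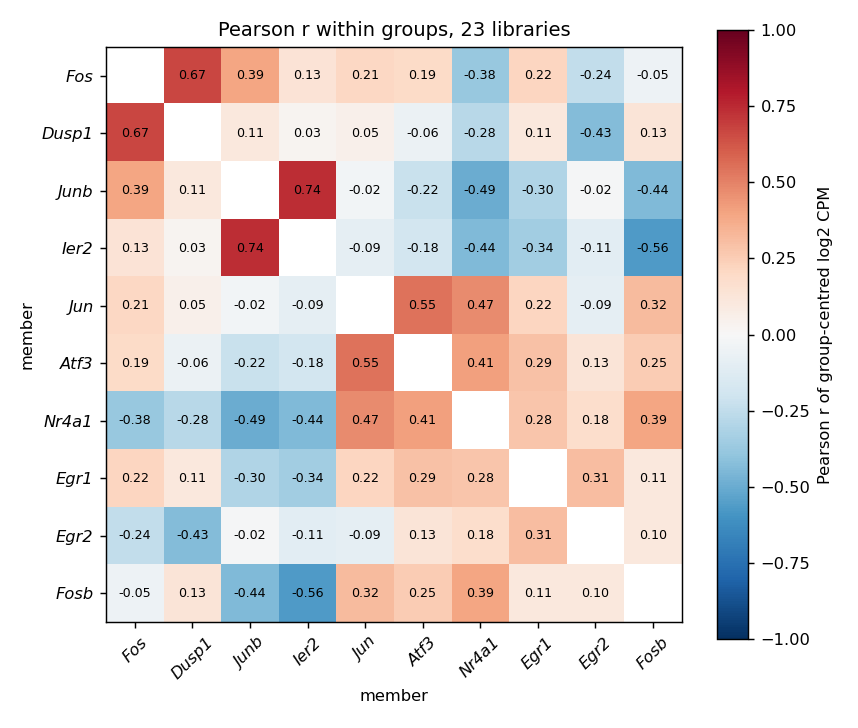
Pearson r between members (both axes) over 23 libraries, from log2 (CPM + 0.5) with group means subtracted. Values range from -0.56 (Fosb and Ier2) to 0.74 (Junb and Ier2), and Fos with Dusp1 is at 0.67.

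Cell composition of the bone samples also varied, so each member was set beside the mean log2 level of 9 marker lists, within groups. None of the 90 relations passed an adjusted p under 0.05, and 19 had an unadjusted permutation p under 0.05. Nr4a1 and markers of osteoblasts and osteocytes had r = 0.72 and rho = 0.66, with adjusted permutation p values of 0.0993 and 0.115, and r = 0.54 without the 2 farthest libraries. Atf3 and skeletal muscle markers had r = 0.61 and rho = 0.61, with adjusted permutation p values of 0.0837 and 0.112, and r = 0.57 without the 2 farthest libraries. Fos and osteoclast markers had r = 0.67 and rho = 0.58, with adjusted permutation p values of 0.112 and 0.185. Nr4a1 was also at r = 0.52 with skeletal muscle markers and at r = -0.54 with erythroid markers (adjusted permutation p = 0.0993 and 0.166). Other negative relations included Atf3 with erythroid markers (r = -0.61), Fos with B cell markers (r = -0.66), and Junb with skeletal muscle markers (r = -0.55). Their adjusted permutation p values were 0.108, 0.112, and 0.112. Muscle markers were uneven between libraries, with sums of 1570 to 10041 CPM (WT Control), 2524 to 6404 (WT T1D), 808 to 9102 (KO Control), and 229 to 5153 (KO T1D). The part of cell composition in the values of the members was not tested.

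Marker lists moved with T1D in WT mice. All 13 tested erythroid markers had a positive log2 fold change, with a median of 0.51, and edgeR called 6 of them. Their summed level was 5357 to 7452 CPM in WT Control and 7672 to 13081 in WT T1D. Among osteoblast and osteocyte markers, 11 of 12 had a negative log2 fold change, with a median of -0.77, and 2 were called. Among adipocyte markers, 5 of 6 had a positive log2 fold change and 1 was called. Over all genes, 2.33% were called. These calls were lost without A3905 and A3906, without A3767, or without A3907, since edgeR then called 0 genes. Markers of osteoclasts, neutrophils, B cells, monocytes and macrophages, endothelium, and skeletal muscle had 0 genes called by edgeR. In those 6 lists together, as in all others, 0 genes were called with T1D in mice labelled KO. With the erythroid score as a covariate, the log2 fold changes of Atf3 and Egr1 with T1D in WT mice changed sign, to 0.12 and 0.09. Egr2 was then at -0.074 ± 0.31, Nr4a1 at 0.50 ± 0.19, and Fos at -0.45 ± 0.36, and edgeR called 0 of the 14364 genes.

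Other genes of the same pathways were counted in the same fit. Of 37 tested genes in a list of other immediate early genes, edgeR called 1 lower and 0 higher with T1D in WT mice. By direction alone, 18 were higher and 19 lower, with a median log2 fold change of -0.04. At an unadjusted p under 0.05 there were 10, of which 6 were higher and 4 lower. Over all genes, 2.33% were called and 22.2% had an unadjusted p under 0.05, so the list lay near these shares. The called gene was Plk2, a polo-like kinase, at -0.75 ± 0.20 with an adjusted p of 0.0499 in edgeR, and this call was lost without A3905 and A3906, A3767, or A3907. Per1, a clock gene that is also induced by glucocorticoids, was at 1.01 ± 0.36 and Ier3 at 0.67 ± 0.24, with adjusted p values of 0.101 and 0.107 in edgeR. Of 11 tested AP-1 subunits other than the members, 0 were called and 2 had an unadjusted p under 0.05. These were Batf2 at -1.001 ± 0.29 and Mafk at 0.31 ± 0.10, with adjusted p values of 0.0591 and 0.0914 in edgeR, and Maff, at -0.20 ± 0.20, did not pass. Of 18 other MAPK phosphatases and feedback inhibitors, 0 were called and 4 had an unadjusted p under 0.05. The largest change in that list was Dusp8, a phosphatase of JNK and p38, at 0.51 ± 0.16 with an adjusted p of 0.0682 in edgeR.

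Among 24 kinases and factors upstream of the members, 0 were called by edgeR and 3 had an unadjusted p under 0.05, compared with 22.2% of all genes. These 3 were Crtc1, a coactivator of CREB, at -0.33 ± 0.10, Rps6ka5, a kinase that phosphorylates CREB and histone H3, at 0.31 ± 0.10, and the related kinase gene Rps6ka3 at -0.18 ± 0.074, named after its value was seen. Elk1, a ternary complex factor, was at -0.20 ± 0.13 and did not pass. Heat shock genes, which respond to protein damage, had 1 of 12 called, compared with 2.33% of all genes. This was the cochaperone gene Dnajb1, which rose by 0.45 ± 0.10 on the log2 scale, with an adjusted p of 0.0367 in edgeR. Its call was lost in the same 3 fits as that of Plk2. Hspb1 and Hsph1, at 0.68 ± 0.46 and -0.36 ± 0.25, did not pass. With T1D in mice labelled KO, 0 genes of these lists were called, and medians ranged from -0.01 for heat shock genes to 0.08 for AP-1 subunits.

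Genes most like the members were ranked by Pearson r of their within-group values with the mean of the members' standardized values, over 23 libraries. The 10 highest were Gpld1 (r = 0.84), Galr2 (0.82), Snap47 (0.74), Cacng7 (0.73), Mgp (0.72), Gpx3 (0.72), Gng7 (0.72), Kcnab1 (0.71), Foxc2 (0.71), and Ankrd29 (0.71). This ranking is a description without a test, and all points share library depth and normalization.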

How the data were processed

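RNA-Seq libraries came from marrow-depleted bone of 23 mice, 1 library per mouse, in the 4 groups that the library titles give. The authors deposited expected counts from RSEM, as whole numbers without normalization, together with TPM from the sequencing provider. Per the labels and the study's methods, paired-end reads of stranded oligo dT libraries went through SOAPnuke for filtering and through HISAT and Bowtie2 for alignment (GRCm38.p6). These steps were not repeated. Reads shared between similar genes were divided by RSEM.

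Members were matched by symbol in the TPM table and by gene ID in the count table. Symbols stored as numbers in the TPM table (33) were replaced by the RefSeq symbol of the same gene ID, or by that ID where RefSeq had no symbol. Library totals were 16938101 to 20135592 counts, which gave as few as 4 counts for Fosb, and depth limits Fosb and Sarm1. All 55 same-group pairs of libraries differed beyond sampling noise (chi-square per gene of 11.3 or more). The value was 145 to 193 for A3905 and A3906 against the other WT T1D mice, but 11.3 between A3905 and A3906. Every other same-group pair was at 85.4 or less. Each library is a separate mouse.

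Counts were tested in R 4.3.3 with edgeR 4.0.16 (TMM, quasi-likelihood, 4 group means over all libraries) on genes that reached 10 counts in 5 or more libraries, adjusted by Benjamini-Hochberg over 14364 genes, with a threshold of 0.05. The filter follows the study. CPM are TMM-normalized. DESeq2 1.42.0, limma 3.58.1 on log2 (TPM + 1), other size factors, no filter, mouse IDs from A36 to A39, an erythroid covariate, and leaving out each library were alternatives. Correlations, spread, and motif searches used Python 3.11.15, numpy 2.4.6, and pandas 2.3.3, and figures matplotlib 3.10.9.

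The members and lists were chosen with earlier results of these data known. Named genes are the members, Sarm1, for each pathway list the 3 genes of at least 1 CPM on average that changed most between WT T1D and WT Control, and the 10 genes most like the members. From the phosphatase list, Dusp5 and Dusp9 had log2 fold changes of -0.29 and -0.27.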

Additional observations from a re-analysis of the deposited data

Results flagged for a closer look

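In 40 combinations of member and group, 3 had a library that stood apart by Dixon's criterion, where chance gives about 1 in 20. Nr4a1 was at 40.8 CPM in KO Control mouse A3679, and the next highest mouse of that group was at 29.2. It was also at 43.5 CPM in KO T1D mouse A3674, with the next at 33.1. Dusp1 was at 46.3 CPM in KO T1D mouse A3676, below the other 5 mice of the group, the lowest of which was at 61.7.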

How the results depend on the processing

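No paired analysis was possible because no mouse number was shared between groups. Counts of called members stayed at 0 under all alternatives for T1D in KO mice, the interaction, and KO against WT in Control mice. With T1D in WT mice the count was 1 in DESeq2, 3 in limma on log2 (TPM + 1), and 1 with A36 to A39 mouse IDs only, where 6.98%, 35.9%, and 15.5% of all genes were called, and 0 to 1 when 1 library was left out, where 0 to 1262 genes were called. Without a filter on low counts, 88 genes were called instead of 334. For KO against WT in T1D mice the count of members was 2 with A36 to A39 mouse IDs only, where 10.8% of all genes were called. The count of members correlated with Fos was 0 with TPM, 0 with A36 to A39 mouse IDs only, and 0 to 1 when 1 library was left out.

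With limma on log2 (TPM + 1), the median of all genes with T1D in WT mice shifted to -0.24, and the log2 fold changes of Jun (-0.13), Junb (-0.20), Nr4a1 (-0.15), and Ier2 (-0.11) turned negative but lay above that median. The interaction turned to 0.084 for Junb, 0.24 for Nr4a1, 0.017 for Ier2, and 0.034 for Dusp1. With A36 to A39 mouse IDs only, Fos (0.10) and Nr4a1 (-0.076) with T1D in WT mice and the interaction of Fos (-0.20) and Nr4a1 (0.21) changed sign. With the erythroid score as a covariate, this held for Egr1 (0.089) and Atf3 (0.12) with T1D in WT mice, for the interaction of Atf3 (-0.27) and Dusp1 (0.14), and for Egr2 in KO against WT in T1D mice (-0.0026). Without A3905 and A3906, Junb with T1D in WT mice was -0.042 and Fos in KO against WT in T1D mice was 0.10. Without A3767 and A3903, the interaction of Fos was -0.044 and Ier2 in KO against WT in Control mice was -0.017. When 1 library was left out, Egr1 with T1D in WT mice ranged from -0.19 to 0.026, and the interaction ranged from -0.082 to 0.34 for Fos and from -0.14 to 0.090 for Nr4a1. None of the values that changed sign had passed the threshold, and the causes were not tested. The last 2 exclusions, A3905 with A3906 and A3767 with A3903, were chosen after seeing the data.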

Other observations

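Of the 14364 tested genes, Fosb was the only 1 for which WT Control mice A3767 and A3903 both exceeded 1.50 times the highest of the other 21 libraries. It was at 5.87 and 10.8 CPM in these mice and at most 2.70 CPM elsewhere. These mice were chosen after the values were seen, for their high Fosb. That Fosb stood out in them is therefore a description and not a test.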
